A study of Mus musculus with 24 samples.

Results

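Jchain and 5 further genes of the B cell lineage, Mzb1, Cd79a, Cd79b, Ms4a1 and Pax5, were followed through the macrophage preparations of livers regenerating with and without the spleen. The 6 genes were found by their symbols in the probe annotation of the array, among 19505 distinct symbols, and each was carried by 1 transcript cluster. Jchain was well above background on all 24 arrays and differed between groups, while the 5 other genes lay near or below background on most arrays. The set therefore has 1 gene with a strong signal, and its other members, which define B cells, showed little of it.

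RNA of liver cells from C57BL/6 mice, selected on magnetic beads for F4/80, a surface protein of macrophages, was measured on 24 Clariom S arrays in 8 groups of 3. The intact group had liver and spleen in place (the methods describe sham-operated controls), and in the SE group the spleen alone had been removed. LR groups were taken 24 h, 3 days and 7 days after removal of 70% of the liver, and the LR+SE groups at the same times after the same resection in animals splenectomized 7 days before it. Each preparation pooled the cells of several mice. By the numbers of mice described, there were too few for a separate pool behind each array, in the intact and SE groups as in the resected ones, so arrays of a group may share animals. The p-values therefore measure the spread between these arrays, which may be technical and smaller than that between mice. All animals were of 1 strain and are described as male, and their age was not stated.

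The bead-selected cells carried the macrophage label they were given. Adgre1, which encodes F4/80, had group means between 14.61 ± 0.78 in the intact group and 16.30 ± 0.51 in LR+SE 7 days (log2 signal, mean ± SD, n = 3), and all 14 macrophage and Kupffer cell genes examined had means above background. The background level, 3.98, is the 95th percentile of all values of 1080 odorant receptor clusters, taken here by convention as genes of mostly low signal. Signals of other liver cells were present as well. Alb, the hepatocyte product albumin, ranged from 14.74 in SE replicate 2 to 19.91. The 3 Y-linked genes examined (Kdm5d, Eif2s3y and Uty) had a mean of 2.60 to 3.08 on 5 arrays, which were all 3 intact arrays, LR+SE 3 days replicate 1 and LR 7 days replicate 2, against 6.75 to 8.78 on the other 19. The readings of these 5 arrays are at odds with the description of all animals as male. The intact group is thus confounded with the absence of Y-linked signal, and the Jchain and Cd79a results that rest on it are given below with this signal as a block too, as are the losses it brings for other genes. Within groups, this block varied only in LR+SE 3 days and LR 7 days. Its effect was therefore estimated from 1 array in each of them, set against the others of that group. Such a fit cannot separate the intact group from its missing Y-linked signal, whether a call is kept or lost. Of 46 called differences of 26 genes from the lists below that use the intact arrays, 35 were no longer called with the block.

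B cells recognize antigen through a membrane immunoglobulin that signals through the paired chains Cd79a and Cd79b. Ms4a1 encodes CD20, a surface protein of mature B cells, and Pax5 is the transcription factor that holds B cells to their identity. When a B cell becomes a plasma cell, Pax5 is switched off and the secretory apparatus expands. Mzb1 is a chaperone of the endoplasmic reticulum that helps to assemble and export antibodies, and Jchain, the joining chain, links IgM into pentamers and IgA into dimers so that the polymeric immunoglobulin receptor (Pigr) can carry them across epithelia. The spleen holds a large store of B cells and plasma cells, and in the liver IgA is carried to bile.

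Promoter sequences from RefSeq (build GRCm38.p6) matched 3 of the 6 genes, Jchain, Cd79a and Pax5. The 250 bases before the start site are shown for the pair that had a called difference, with matches to B lineage motifs in capitals. In all, 4 motifs were searched on both strands: the octamer ATGCAAAT, the PU.1 core AGGAAG, the E-box CAGGTG bound by E2A and the TATA box TATAAA. The letters of some of them can overlap with those of others.
Jchain (chr5:88527898-88528147, minus strand): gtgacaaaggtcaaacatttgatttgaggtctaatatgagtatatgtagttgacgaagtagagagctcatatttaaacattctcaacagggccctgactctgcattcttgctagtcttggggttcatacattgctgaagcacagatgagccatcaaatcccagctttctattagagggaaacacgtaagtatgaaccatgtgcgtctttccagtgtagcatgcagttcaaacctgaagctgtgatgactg
Cd79a (chr7:24897247-24897496, plus strand): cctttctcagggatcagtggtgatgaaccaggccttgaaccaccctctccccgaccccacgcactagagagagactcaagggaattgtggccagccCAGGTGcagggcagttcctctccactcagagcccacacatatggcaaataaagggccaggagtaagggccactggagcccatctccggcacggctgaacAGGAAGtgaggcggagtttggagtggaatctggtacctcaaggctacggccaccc
In the Cd79a window the E-box lay 154 to 149 bases and the PU.1 core 55 to 50 bases before the start site, both on the strand of the gene. None of the 4 sets of letters occurred in the Jchain window. Among 32851 promoters of the same length, 1.6% held the octamer, 29.5% the PU.1 core, 17.2% the E-box and 12.4% the TATA box, so both matches of Cd79a are of common motifs.

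Jchain was highest in the intact group. The 3 intact arrays read 10.38, 8.16 and 11.15, and the SE arrays 6.09, 6.65 and 5.99. With the spleen in place, the LR arrays read 9.42, 8.09 and 7.54 at 24 h, 6.94, 5.24 and 6.70 at 3 days and 5.82, 6.50 and 6.04 at 7 days. After splenectomy, the LR+SE arrays read 5.73, 5.95 and 6.61 at 24 h, 7.32, 5.62 and 7.56 at 3 days and 9.26, 8.22 and 8.85 at 7 days. With the spleen the signal thus started high and lay low at 7 days, and without it the signal started low and lay high at 7 days.

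**Figure D1:**
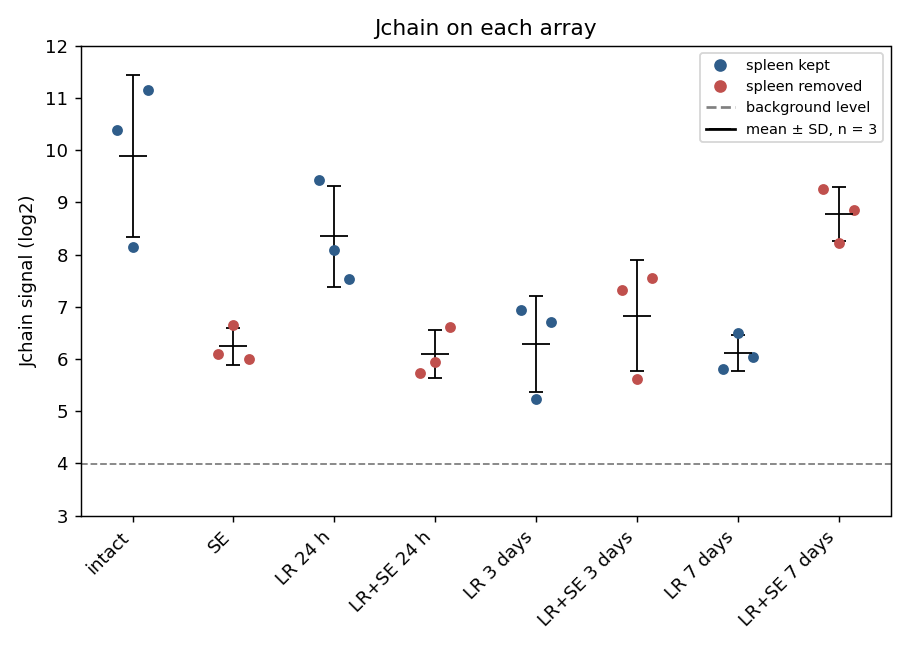
Log2 signal of Jchain on each of the 24 arrays (points), by group, with the mean and SD of 3 arrays and the background level of 3.98 as a dashed line. The intact arrays (8.16 to 11.15) and the LR+SE 7 days arrays (8.22 to 9.26) lie above all arrays of SE, LR 7 days and LR+SE 24 h.

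In the order of their means, the groups stood at 9.90 ± 1.55 (intact), 8.78 ± 0.52 (LR+SE 7 days), 8.35 ± 0.97 (LR 24 h), 6.83 ± 1.06 (LR+SE 3 days), 6.30 ± 0.92 (LR 3 days), 6.24 ± 0.36 (SE), 6.12 ± 0.35 (LR 7 days) and 6.10 ± 0.46 (LR+SE 24 h). The arrays of neighbours in this order overlapped in each of the 7 pairs. The widest gap, between LR 24 h and LR+SE 3 days, was 1.52 with a 95% interval from 0.18 to 2.86, and the 4 lowest groups had means between 6.10 and 6.30. In limma's moderated F test over the 8 groups, Jchain differed (adjusted p = 0.00072), as the 1 gene of 6 that did, against 15.4% of all 22206 clusters. Between arrays of the same group its SD was 0.87.

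Splenectomy alone went with a lower Jchain signal. It was 12.6-fold lower in SE than in the intact group, a log2 difference of -3.65 ± 0.64 (standard error here and for all differences below, limma, Benjamini-Hochberg adjusted p = 0.0104), and the arrays of both groups did not overlap. Of the 6 genes, 1 passed in this comparison, against 0.554% of all clusters. The difference was no longer called without intact replicate 1 (-3.41, adjusted p = 0.0551), intact replicate 3 (-3.03, 0.0716) or SE replicate 3 (-3.53, 0.0503), with the Y-linked block (-3.00, 0.282), with the hepatocyte list as a covariate (-2.87, 0.934) or with a fit on these 2 groups alone (0.0576). The hepatocyte list, 9 genes, averaged 10.27 to 12.45 on the intact arrays and 7.12 to 9.02 on the SE arrays, and its part in the result was not tested beyond that covariate. Over all clusters, that covariate left 1 call here, 1 in LR 7 days against intact and 1 in LR+SE 3 days against SE. Losses with it in these comparisons are therefore not particular to a gene. In preparations of many cells, fewer cells of a type and less RNA per cell cannot be told apart.

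In animals with a spleen, Jchain fell after resection. Against the intact group, the difference was -1.55 ± 0.64 at 24 h, which did not pass (adjusted p = 0.173), -3.60 ± 0.64 at 3 days (0.00387) and -3.78 ± 0.64 at 7 days (0.0054). The last 2 are 12.1-fold and 13.7-fold lower, and in both the arrays did not overlap with the intact ones. At each of these times 1 of 6 genes was called, against 7.59% of all clusters at 24 h, 2.36% at 3 days and 1% at 7 days, and at 24 h this gene was Cd79a. Without intact replicate 2, the lowest of the intact arrays, the 24 h difference was -2.42 and was called (0.0216). That was the 1 of 6 such fits with a call, and over them the difference ranged up to -0.92, with adjusted p up to 0.555. With the Y-linked block the differences were -2.95 at 3 days (0.162) and -3.34 at 7 days (0.0741), and LR 7 days replicate 2, which also lacked Y-linked signal, had a Jchain signal of 6.50. The 7 day call was also lost with the hepatocyte covariate (-3.05, 0.551) and with a fit on both groups alone (0.157).

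In animals without a spleen the group means ran the other way, though no difference from SE was called in the main fit. Against SE, the difference was -0.15 ± 0.64 at 24 h (adjusted p = 0.965, 95% interval -1.49 to 1.19) and 0.59 ± 0.64 at 3 days (0.671, -0.75 to 1.93). At 7 days it was 2.54 ± 0.64, or 5.8-fold, with no overlap between the arrays and an adjusted p of 0.0509, just outside the threshold. None of the 6 genes was thus called at 24 h, 3 days or 7 days, against 1.33%, 6.92% and 1.52% of all clusters. At an unadjusted p under 0.05 Jchain at 7 days was alone, against 2655, 4430 and 3169 of all 22206 clusters at these times. The 7 day difference was called with the replicate block (0.0354), with the Y-linked block (0.0462), with a fit on clusters above background (0.0316), with a trend and robust prior (0.0352) and with a fit on both groups alone (0.0234), at the same size. It was not called in any of the 6 fits that left out 1 array (2.30 to 2.82, adjusted p 0.0595 to 0.162).

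**Figure D2:**
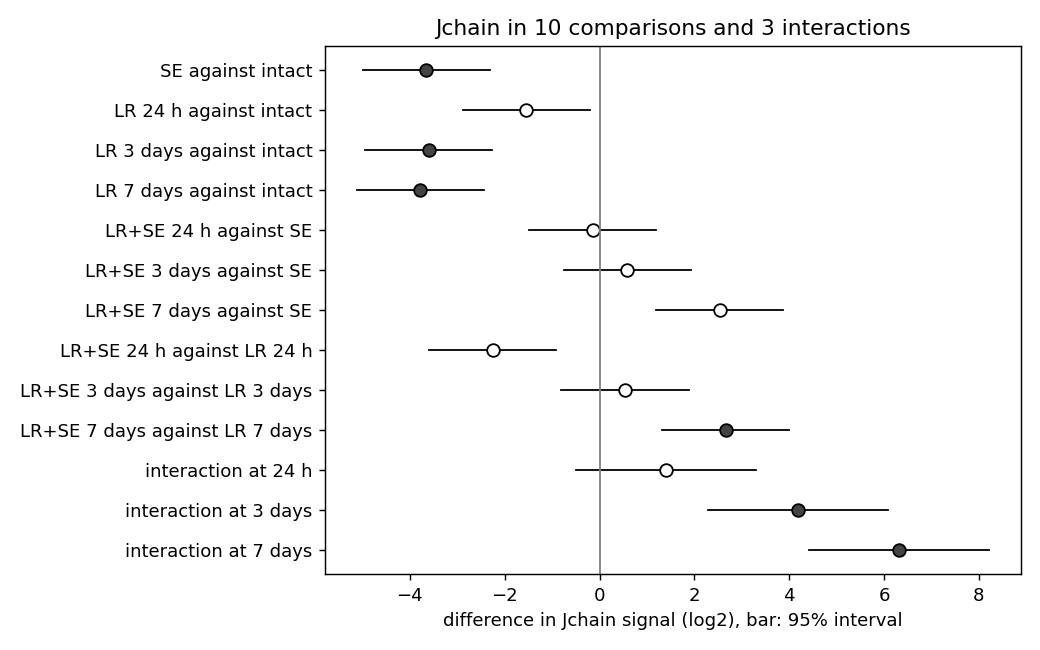
Difference in Jchain signal (log2, points) with its 95% interval (bars) in 10 comparisons between groups and 3 interactions, where filled points had an adjusted p under 0.05. The interactions rise from 1.40 at 24 h to 6.31 at 7 days.

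The estimates of the direct comparison between regenerating livers with and without a spleen changed sign with time, a change that was not itself tested. At 24 h Jchain was lower in LR+SE than in LR by 2.26 on the log2 scale (-2.26 ± 0.64), with no overlap between arrays and an adjusted p of 0.0603. At 3 days it was 0.54 ± 0.64 higher (adjusted p = 1, 95% interval -0.80 to 1.88), and at 7 days it was 2.66 ± 0.64 higher, 6.33-fold, without overlap (0.0396). Of the 6 genes, 0 were called at 24 h and at 3 days and 1 at 7 days, against 3.26%, 0.126% and 1.64% of all clusters. At 24 h, 2 of the 6 genes, Jchain and Mzb1, had an unadjusted p under 0.05, and at 3 days none had, against 3185 and 1541 of all 22206 clusters. The call at 7 days was lost without any 1 of 5 of the 6 arrays compared (LR 7 days replicates 1 and 3 and all LR+SE 7 days replicates), with adjusted p between 0.0637 and 0.156 and differences between 2.42 and 2.94. With the Y-linked block it was 2.88 and was called (0.025).

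The interaction takes the resection effect in splenectomized animals and subtracts from it the effect in animals with a spleen, and here it asks whether the courses of Jchain differed. It was 1.40 ± 0.91 at 24 h (adjusted p = 0.558), 4.19 ± 0.91 at 3 days (0.0401) and 6.31 ± 0.91 at 7 days (0.00677). Jchain was the 1 gene of 6 called at 3 and at 7 days, and 0 of 6 were called at 24 h, where Cd79a had an unadjusted p of 0.00472, against 0.684% of all clusters at 24 h, 0.513% at 3 days and 0.122% at 7 days. The 7 day interaction was called with each array of its 4 groups left out (5.69 to 7.19, highest adjusted p 0.0386) and with the Y-linked block (5.88, 0.0458), but not with the hepatocyte (5.36, 0.495) or the endothelial (4.57, 0.999) covariate. The 3 day interaction was lost on leaving out 10 of the 12 arrays in turn, with values of 3.56 to 4.51 in those 10 fits and adjusted p up to 0.156, with the Y-linked block (3.32, 0.392) and with the hepatocyte (2.95, 1) or the endothelial (3.82, 0.122) covariate. The hepatocyte covariate left 0 of all clusters called at 3 and at 7 days, so its losses there are not particular to Jchain. At 24 h the Y-linked block gave 0.75 (0.937). Averaged over the 4 stages, the splenectomy difference of Jchain was -0.68 ± 0.32 (0.339), and averaged over 6 resected groups, the resection difference was -0.99 ± 0.37 (0.112), or -0.52 (0.541) and -0.74 (0.418) with the Y-linked block. In these 2 averages 0 of 6 genes were called, against 2.31% and 8.33% of all clusters. At an unadjusted p under 0.05 there were 1 (Jchain) and 3 (Jchain, Cd79a and Ms4a1), against 3232 and 4688 of all 22206 clusters.

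These comparisons share arrays: of the 10 differences between groups, 4 use the intact arrays and 4 the SE arrays, and each interaction uses both, so the results are not independent of each other.

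Markers of other cells moved with Jchain in part of the groups. The 9 genes of the sinusoidal endothelial list, cells that line the liver's blood channels, averaged 13.26 to 14.32 in LR+SE 7 days against 10.53 to 11.01 in LR 7 days and 11.97 to 12.42 in SE, and all 9 had means above background. In LR 24 h, another group with high Jchain, they averaged 13.75 to 14.16, and in the intact group 11.65 to 13.36. With this list as a covariate the LR+SE against LR difference at 7 days was 1.08 (adjusted p = 1) and the 7 day interaction 4.57 (0.999), and LR 7 days against intact was -2.86 (0.879), while SE against intact stayed at -3.49 (0.0176) and LR 3 days against intact at -3.52 (0.00534). In LR+SE against LR at 7 days this covariate left 0 of all clusters called, so the loss there is not particular to Jchain. Over the 24 arrays, Pearson's r with Jchain was 0.52 for the endothelial list, 0.55 for 16 T and NK cell genes, 0.31 for the hepatocyte list and 0.07 for the macrophage list. Of the lists below, it was 0.473 for antibody receptors, 0.425 for mature B cell identity, 0.214 for antigen receptor signalling and 0.193 for B cell precursors. For B cell survival and homing it was 0.141, for plasmacytoid dendritic cells -0.0851 and for plasma cells and antibody secretion -0.172. Arrays of 1 group share much of each value. Of the T and NK cell genes, 13 of 16 had means below background, Cd3d, Cd3e and Cd3g among them. Their list mean was 3.81 to 4.32 in the intact group and 3.39 to 3.74 in all other groups, and its part in the results was not tested.

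**Figure D3:**
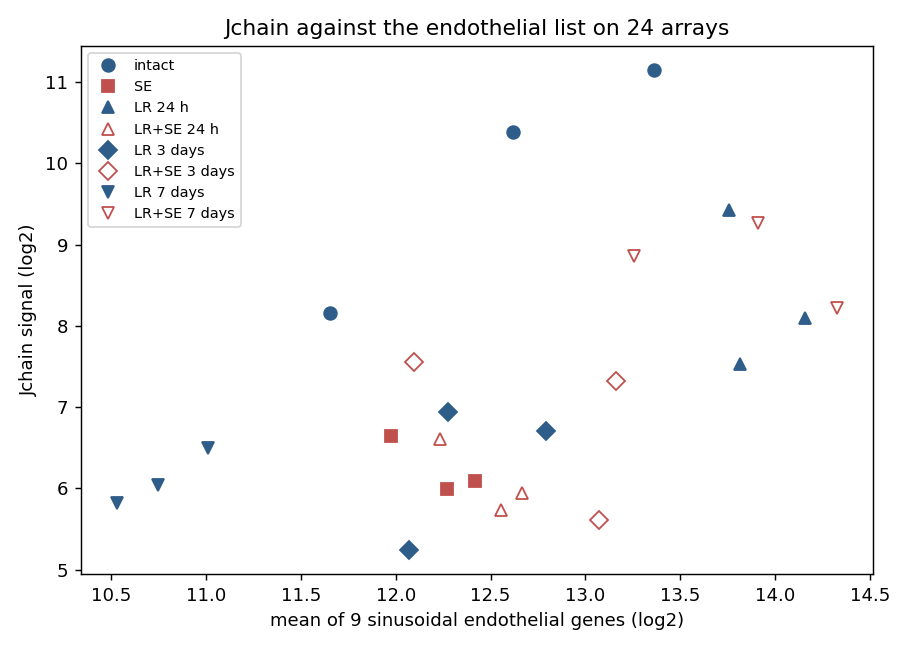
Jchain signal (log2) against the mean log2 signal of 9 sinusoidal endothelial genes on the 24 arrays, with a symbol for each group, filled for groups other than LR+SE. LR 24 h and LR+SE 7 days lie high on both axes (13.26 to 14.32 on the horizontal), while the intact arrays, at 11.65 to 13.36, read 8.16 to 11.15 in Jchain.

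Cd79a, the signalling chain of the B cell receptor, was the second gene with a call, close to the background level. It read 5.46, 3.43 and 4.49 on the intact arrays, and 3.27, 2.75 and 3.06 in LR 24 h. On the 18 arrays of the 6 other groups it lay between 2.99 and 4.29. It was thus above background on 2 of 3 intact arrays and on 1 further array, LR+SE 3 days replicate 1.

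In LR 24 h Cd79a was lower than in the intact group by a log2 difference of -1.43 ± 0.35 (limma, adjusted p = 0.0136), with no overlap, and since LR 24 h lay below background this size rests on values without a firm scale. With the Y-linked block the difference was -0.79 (0.58), and it was no longer called without intact replicate 1 (-0.93, 0.0866) or LR 24 h replicate 2 (-1.29, 0.0764). The differences of SE (-1.30, adjusted p = 0.101), LR 3 days (-0.82, 0.314) and LR 7 days (-1.27, 0.0894) from the intact group did not pass. In the intact group Cd79a and Jchain had the same lowest array, replicate 2, and over 24 arrays their Pearson's r was 0.56, which was 0.11 over the 21 arrays without the intact group.

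Cd79b, the partner of Cd79a, had another pattern. It stood at 4.13 ± 0.06 in LR 3 days and 4.14 ± 0.09 in LR+SE 7 days, the groups in which all 3 arrays lay above background, and at 3.28 to 3.89 on average in the other 6. Single arrays ran from 2.81 in LR+SE 24 h to 4.50 in LR+SE 3 days. None of its 10 differences between groups passed, and they reached from -0.40 to 0.47 (smallest adjusted p = 0.495).

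Mzb1, the antibody chaperone that plasma cells express with Jchain, stayed below background on 23 of 24 arrays. The exception was LR 24 h replicate 1, at 4.08, which was also the LR 24 h array with the highest Jchain. The other LR 24 h arrays read 3.29 and 3.31, and those of LR+SE 24 h 2.87, 2.73 and 2.98. The difference, -0.70 ± 0.23, did not pass (adjusted p = 0.108). In the intact group, where Jchain was highest, Mzb1 was at 3.14 ± 0.27. Its r with Jchain was 0.33 over the 24 arrays and 0.51 over the 21 without the intact group.

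Ms4a1 and Pax5 lay below the background level on all 24 arrays. Ms4a1 ranged from 2.59 to 3.95 and stood at 3.84, 3.51 and 3.64 on the intact arrays, above all arrays of SE, LR 24 h and LR 7 days. Its largest difference, -0.66 ± 0.27 in LR 24 h against intact, did not pass (adjusted p = 0.166). Pax5 ranged from 2.57 to 3.27, and its 10 differences lay between -0.22 and 0.12 (smallest adjusted p = 0.602). By its mean, Jchain stood above 77.4% of all clusters, Cd79b above 44.4%, Cd79a above 38.3%, Ms4a1 above 27.1%, Mzb1 above 21.2% and Pax5 above 8.03%.

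**Figure D4:**
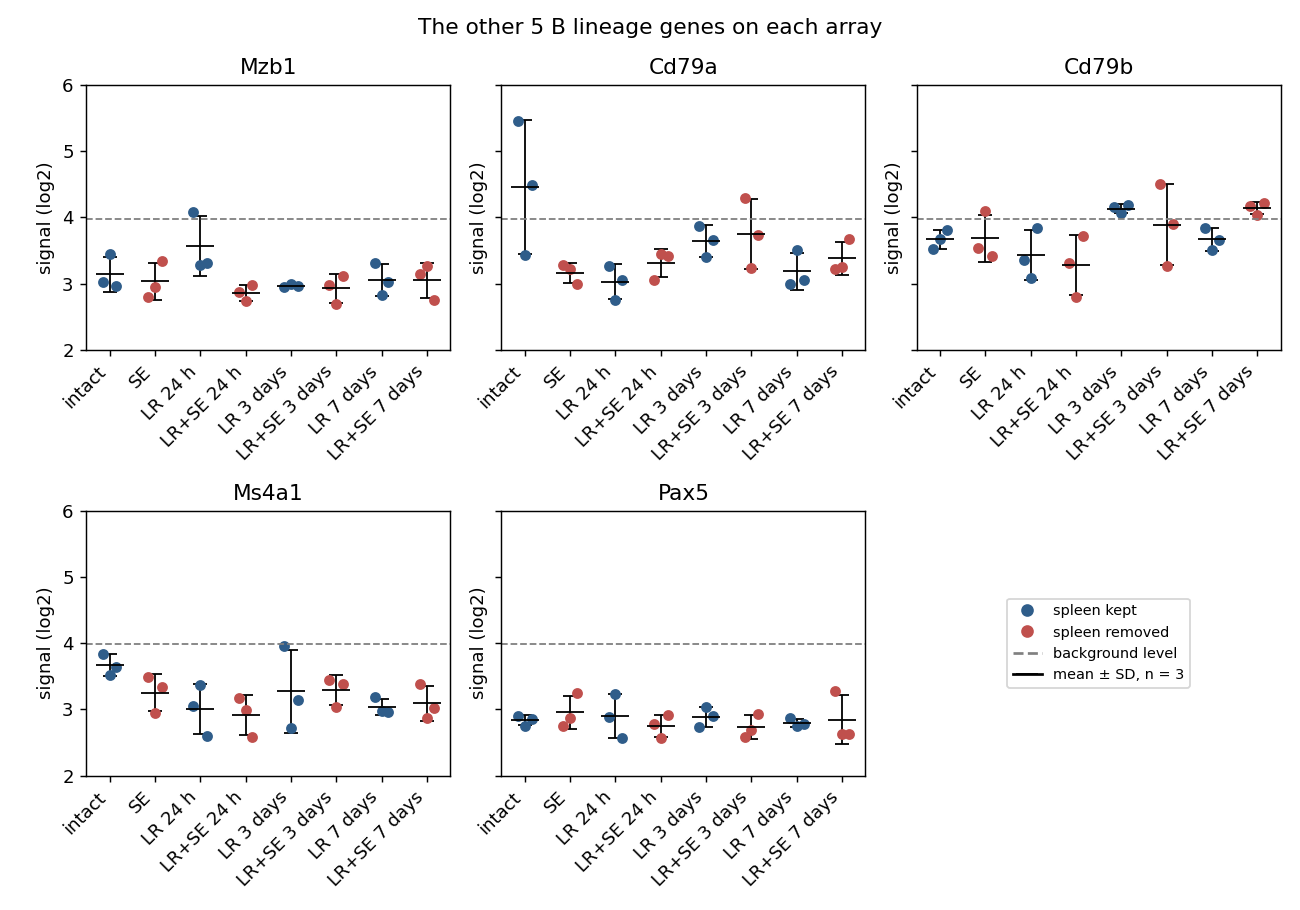
Log2 signal of Mzb1, Cd79a, Cd79b, Ms4a1 and Pax5 on each array (points), by group, with mean and SD of 3 arrays and the background level of 3.98 as a dashed line. Apart from Cd79a on 2 intact arrays and Cd79b in LR 3 days and LR+SE 7 days, few points lie above the line.

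The genes most like Jchain over the 24 arrays, among 10153 named genes with a mean above background, were Cyp4b1, a cytochrome P450 (Pearson's r 0.80), Mtnr1b, a melatonin receptor (0.79), Pdgfd, a platelet-derived growth factor (0.78), Bmp6, a bone morphogenetic protein that liver endothelial cells make (0.78), and Meis2, a homeobox factor (0.73). None of these belongs to the B lineage lists. Mtnr1b and Pdgfd had means of 4.08 and 4.06, close to background. Mtnr1b lay below background on average in SE, LR+SE 24 h, LR 3 days and LR+SE 3 days, so its values have no firm scale. Cyp4b1 had the same high groups, with 11.32 ± 1.18 in the intact group, 10.77 ± 0.62 in LR 24 h and 11.20 ± 0.47 in LR+SE 7 days against 7.79 ± 0.19 in LR 7 days, but SE, at 10.23 ± 0.56, lay high as well. By Spearman's rho 4 of the 5 genes were again in the first 5. By r of the deviations from group means none was, and the first was Ebf1 (0.79), a transcription factor of early B cells that mesenchymal cells also use.

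Other genes of antigen receptor signalling were measured at high levels, as several are shared with macrophages. Of 15 measured genes, 13 had means above background. In LR 24 h against intact 4 fell and 0 rose: Cd22, an inhibitory co-receptor (-2.79 ± 0.41), Blnk, an adaptor (-2.92 ± 0.56), Btk, a kinase (-1.48 ± 0.32), and Bank1, a scaffold (-2.85 ± 0.72), with a list median of -0.51 against 0.01 for all clusters, of which 4.12% were called lower. Cd22 read 8.83 ± 0.31 in the intact group and 6.05 ± 0.70 in LR 24 h. None of the 4 was called with the Y-linked block (-1.80 for Cd22, -0.89 for Blnk, -1.03 for Btk and -1.28 for Bank1, lowest adjusted p 0.0977), and Bank1 was not called without intact replicate 2 or LR 24 h replicate 2 either. Genes of other myeloid cells moved in the same comparison: 13 neutrophil and monocyte genes averaged 5.88 to 6.88 on the intact arrays and 11.36 to 11.81 in LR 24 h, where 8 of 13 were called higher. The 14 macrophage genes averaged 16.09 to 16.77 and 15.69 to 16.74, with 3 called lower and 1 higher. The part of these myeloid genes in the falls was not tested.

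At 24 h 2 of these genes stood higher in LR+SE than in LR, Cd22 by 2.24 ± 0.41 (adjusted p = 0.00254) and Btk by 1.87 ± 0.32 (0.00156), opposite in direction to the Jchain difference there, against 2.04% of all clusters called higher. With the endothelial covariate neither was called (0.0725 and 0.118). The neutrophil and monocyte list averaged 12.58 to 13.3 in LR+SE 24 h. In LR 7 days against intact 3 fell, Cd22 (-2.73 ± 0.41), Cd81 (-1.41 ± 0.30) and Fcgr2b (-2.15 ± 0.45), against 0.612% of all clusters. None of these 3 was called with the Y-linked block (lowest adjusted p 0.055), the hepatocyte covariate (0.319) or the endothelial covariate (0.433). Leaving out 1 array ended the Cd81 call for each array but LR 7 days replicate 2 (adjusted p up to 0.143), and the Fcgr2b call for intact replicates 1 and 3 and LR 7 days replicates 1 and 3 (up to 0.123). Between LR+SE and LR at 7 days 2 rose, Cd81, a tetraspanin, and Fcgr2b, the inhibitory Fc receptor, by 1.55 ± 0.30 and 2.45 ± 0.45, against 0.95% of all clusters called higher. Of these, Cd81 was not called without LR 7 days replicate 1 or LR+SE 7 days replicate 2 and Fcgr2b not without the latter. Cd81 read 19.44 to 19.60 on the intact arrays and 19.57 to 19.75 in LR+SE 7 days, near 19.93, the highest of all values. The sizes of its differences from LR 7 days therefore have no firm scale. Fcgr2b, which sinusoidal endothelium also carries, read 15.42 ± 0.43 in LR 7 days and 17.86 ± 0.73 in LR+SE 7 days. With the endothelial covariate its difference was -0.21 (adjusted p = 1). Fcgr2b is itself 1 of the 9 genes averaged in that covariate, so a smaller difference with it was partly built in. In SE against intact 0 of 15 were called by limma (2 had an unadjusted p under 0.05, against 2855 of all 22206 clusters). The list median was -0.12 against 0.01 for all clusters. In LR+SE against SE 1 of 15 fell at 3 days, Pik3ap1 (-1.91 ± 0.395), against 1.79% of all clusters. This call was kept with each array left out (adjusted p up to 0.038). At 7 days 1 of 15 rose, Fcgr2b (1.83 ± 0.45), against 0.77% of all clusters. Leaving out any 1 array ended that call (0.0527 to 0.201).

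Of 19 measured genes of mature B cell identity, 9 had means above background. Ebf1, and Tnfrsf13c, the receptor for the B cell survival factor BAFF, were lower in all 3 LR groups than in the intact group. Ebf1 read 5.22 ± 0.64 in the intact group and fell by 1.01 ± 0.25 at 24 h, by 1.45 ± 0.25 at 3 days and by 1.27 ± 0.25 at 7 days (adjusted p 0.0128, 0.00263 and 0.0145). Tnfrsf13c read 6.12 ± 1.14 there and its differences were -1.49 ± 0.42, -1.66 ± 0.42 and -1.82 ± 0.42 (0.0314, 0.0378 and 0.0387). In LR 3 days and LR 7 days the mean of Ebf1 lay below background, so the sizes there have no firm scale. None of these 6 differences was called with the Y-linked block (lowest adjusted p 0.077). The Ebf1 calls at 24 h and 7 days were lost without intact replicate 1, intact replicate 3 or replicate 3 of the LR group. Those of Tnfrsf13c were lost at 24 h without intact replicate 1 (-0.84, adjusted p = 0.185) or any LR 24 h array, at 3 days without any array but intact replicate 2, and at 7 days without any array but intact replicate 2 and LR 7 days replicate 2. Both stood near 4 to 5 in every other group, LR+SE 7 days included (3.83 ± 0.06 and 4.35 ± 0.25), where Jchain was high.

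With Cd22 and Cd180, a Toll-like receptor homologue (-4.10 ± 0.88), the list had 4 falls and 0 rises in LR 24 h against intact, 0 rises and 2 falls at 3 days and 0 rises and 3 falls at 7 days, against 4.12%, 0.964% and 0.612% of all clusters called lower, with medians of -0.19, -0.14 and -0.12 against 0.01, -0.01 and 0.02. Cd180, with the Y-linked block, stood at -1.98 (adjusted p = 0.526). In SE against intact 0 of 19 were called by limma (5 had an unadjusted p under 0.05, against 2855 of all 22206 clusters, and the median was -0.08). Cd37, a tetraspanin of leukocytes, rose in LR+SE against SE at 24 h (2.69 ± 0.56) and at 3 days (2.03 ± 0.56), and Ralgps2 rose between LR and LR+SE at 7 days (1.88 ± 0.36). Each was the 1 gene of 19 called there, against 0.955%, 5.12% and 0.95% of all clusters called higher. The Cd37 calls were lost at 24 h without SE replicates 1 or 3 or LR+SE 24 h replicate 3, and at 3 days without any array but LR+SE 3 days replicate 3, and that of Ralgps2 without LR+SE 7 days replicate 3. Pou2af1, the octamer coactivator of B cells, was below background in all groups, at 2.66 to 3.23 on average.

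Genes of plasma cells and antibody secretion had calls in both directions. Of 18 measured, 14 had means above background, and most of these serve protein export in any cell. Tnfrsf17, the plasma cell receptor BCMA, and Derl3 had means below background. In SE against intact 0 of 18 were called by limma (1 had an unadjusted p under 0.05, against 2855 of all 22206 clusters), with a median of -0.22. In LR 24 h against intact 2 rose, Sdc1, a surface proteoglycan of plasma cells and epithelia (3.23 ± 0.94), and Fkbp11 (1.27 ± 0.37), and 1 fell, Irf4 (-1.40 ± 0.32), against 3.47% and 4.12% of all clusters. In LR+SE 3 days against SE 3 rose, Sdf2l1 (1.79 ± 0.36), Txndc5 (1.67 ± 0.34) and Ssr4 (1.49 ± 0.34), which serve protein folding and export, and 2 fell, Irf4 (-1.37 ± 0.32) and Prdm1 (-1.95 ± 0.49), against 5.12% and 1.79% of all clusters. Irf4 and Prdm1 together drive the plasma cell programme and also act in macrophages. Irf4 lay below background in LR 24 h and LR+SE 3 days, at 3.49 ± 0.13 and 3.53 ± 0.51, as Fkbp11 did in the intact group, so these sizes have no firm scale.

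None of the 3 calls in LR 24 h was kept with the Y-linked block, and leaving out 1 array ended that of Fkbp11 for each array but intact replicate 1, that of Sdc1 for intact replicates 2 and 3 and LR 24 h replicates 1 and 2, and that of Irf4 for intact replicate 3. At 3 days the Irf4 call was lost without SE replicate 3 or LR+SE 3 days replicate 2, and that of Ssr4 without LR+SE 3 days replicate 1. With the hepatocyte covariate none of Sdf2l1, Txndc5, Ssr4 and Irf4 was called at 3 days (lowest adjusted p 0.195), where it left 1 of all clusters called. At 7 days Prdm1 fell in LR+SE against SE (-2.40 ± 0.49), where Jchain had its difference of 2.54, and this call was lost without SE replicate 1 or LR+SE 7 days replicate 3. Xbp1, a factor of the secretory response, was lower in LR 7 days than in the intact group (-1.85 ± 0.39) and higher in LR+SE 7 days than in LR 7 days (2.00 ± 0.39), with the signs that Jchain had there. The first call was lost with the Y-linked block (-1.66, adjusted p = 0.164) and without any array but LR 7 days replicate 2 (up to 0.132), and the second without LR 7 days replicate 1 or LR+SE 7 days replicate 3. Each of these 7 day calls was the 1 of 18 genes in its comparison. The shares of all clusters were 0.748% called lower for that of Prdm1, and 0.612% lower and 0.95% higher for those of Xbp1.

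**Figure D5:**
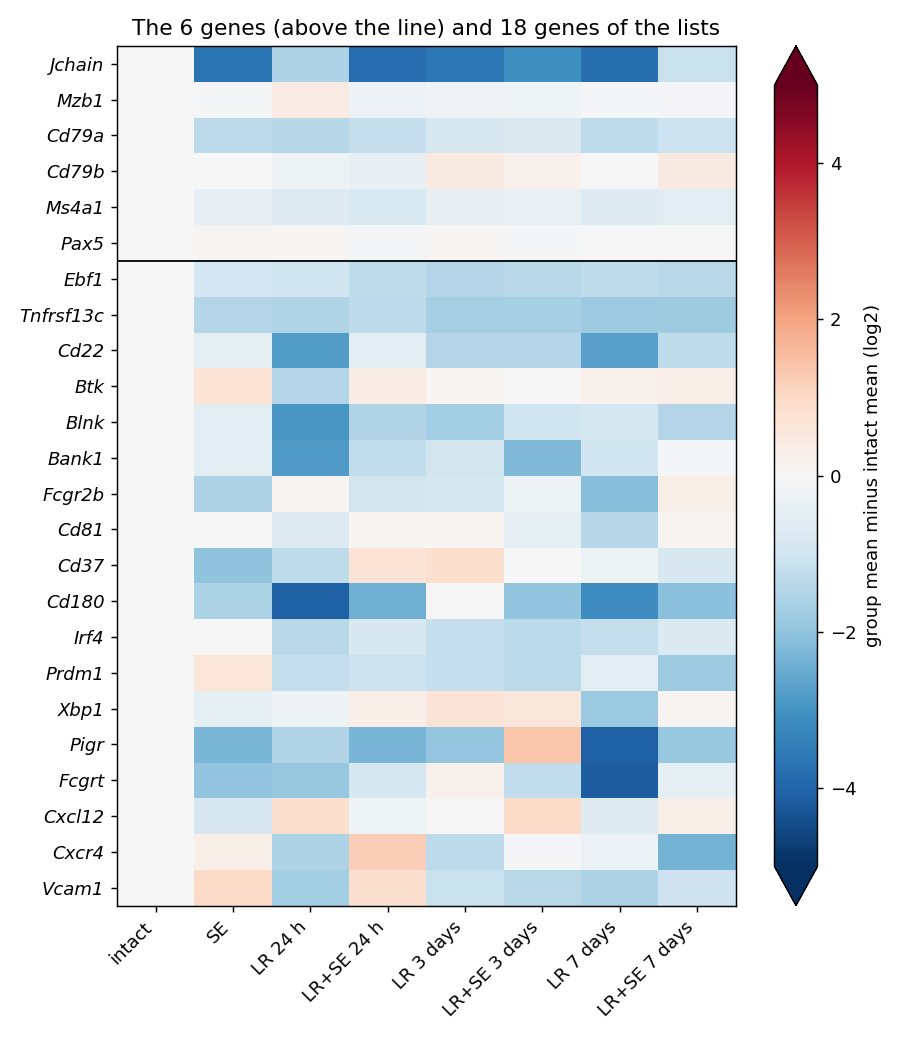
Group mean minus intact mean (log2, colour, on a scale of 5 to either side) of the 6 genes (above the line) and of 18 genes from the lists, by group. Jchain has the deepest colour among the 6 in SE, LR 3 days, LR 7 days and LR+SE 24 h, and Ebf1 and Tnfrsf13c are below the intact mean in all 7 other groups.

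Among 11 receptors for antibodies, Pigr carries those that Jchain links, and others, such as Fcgrt and the Fcgr genes, bind IgG. Pigr read 7.78 ± 1.38 in the intact group, 5.49 ± 0.47 in SE, 3.70 ± 0.67 in LR 7 days and 9.15 ± 1.37 in LR+SE 3 days. It fell in LR 7 days against intact (-4.08 ± 0.68, adjusted p = 0.00454), rose in LR+SE 3 days against SE (3.65 ± 0.68, 0.00208), and had an interaction of 5.61 ± 0.97 at 3 days (0.00853). The hepatocyte list averaged 12.18 to 13.17 in LR+SE 3 days and 7.49 to 9.26 in LR 7 days, and with this list as a covariate none of the 3 was called (-1.83, adjusted p = 0.746, 0.37, 0.954, and 1.75, 1). Over all clusters that covariate left 1 call in LR 7 days against intact, 1 in LR+SE 3 days against SE and 0 in the 3 day interaction. With the Y-linked block the fall was -4.04 (0.055) and the interaction 5.53 (0.135), and since Pigr lay below background in LR 7 days the size of its fall has no firm scale. Fcgrt, the neonatal Fc receptor that spares IgG, fell in LR 7 days against intact as well (-4.13 ± 0.94), and in that comparison 4 of 11 genes fell and 0 rose, against 0.612% of all clusters called lower, with a list median of -0.01 against 0.02. The Fcgrt call was lost with the Y-linked block (-2.20, 0.437) and without any array but LR 7 days replicate 2 (adjusted p up to 0.149). In SE against intact 0 of 11 were called by limma, 6 had an unadjusted p under 0.05, against 2855 of all 22206 clusters, and the median was -1.02 against 0.01. In LR+SE 3 days against SE 2 of 11 were called higher, against 5.12% of all clusters. In the 3 day interaction 1 of 11 was, against 0.468%.

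Among 15 genes of B cell survival and homing, the chemokine Cxcl12, which holds plasma cells in their niches, rose in LR+SE against SE at 3 days (1.78 ± 0.27) and 7 days (1.11 ± 0.27), and its receptor Cxcr4 fell at 7 days (-2.64 ± 0.55). Vcam1, an adhesion ligand, fell in the same comparisons by 2.33 ± 0.39 and 2.00 ± 0.39. Of the 15 genes, 1 was thus called higher and 1 lower at 3 days, against 5.12% and 1.79% of all clusters. At 7 days 1 was called higher and 2 lower, against 0.77% and 0.748% of all clusters. The 7 day call of Cxcl12 was lost on leaving out any 1 array (adjusted p 0.0551 to 0.121), that of Cxcr4 without SE replicate 1 or LR+SE 7 days replicate 3, and that of Vcam1 without SE replicate 3. With the hepatocyte covariate neither Cxcl12 (0.94, 0.665) nor Vcam1 (-1.78, 0.58) was called at 3 days, where it left 1 of all clusters called. At 24 h, LR+SE against LR, Cxcr4 (2.79 ± 0.55) and Vcam1 (2.49 ± 0.39) were higher and Cxcl12 (-1.03 ± 0.27) and S1pr1 (-2.84 ± 0.51) lower, where the Cxcl12 call was lost without LR 24 h replicates 1 or 2 or LR+SE 24 h replicates 2 or 3. These 2 rises and 2 falls stood against 2.04% and 1.22% of all clusters. In LR 24 h against intact 1 of 15 rose, S1pr1 (2.88 ± 0.51), against 3.47% of all clusters. There 3 fell, Tnfrsf13c, given above, Vcam1 (-1.69 ± 0.39) and Ccr7 (-1.29 ± 0.34), against 4.12%. Leaving out 1 array could end the calls of Vcam1 and Ccr7 (adjusted p up to 0.0723 and 0.131).

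Of 9 measured genes of B cell precursors, 6 had means below background, and Cd93, which myeloid and endothelial cells also express, rose in LR 24 h against intact (5.44 ± 0.74), in LR+SE 3 days against SE (3.37 ± 0.74) and was lower in LR+SE than in LR at 24 h (-2.67 ± 0.74). The first was called with the Y-linked block too (5.03, 0.0244), the second was lost without LR+SE 3 days replicate 2 and with the hepatocyte covariate (1.46, 0.832), and the third without replicates 2 or 3 of either group. In each of these comparisons Cd93 was the 1 gene of 9 called. The shares of all clusters were 3.47% and 5.12% called higher and 1.22% called lower. Of 12 genes of plasmacytoid dendritic cells, another cell type known to express Jchain, 0 were called by limma in SE against intact (1 had an unadjusted p under 0.05, against 2855 of all 22206 clusters). The list mean was 7.24 to 7.55 on the intact arrays and 7.16 to 7.60 on the SE arrays.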

How the data were processed

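The deposited table held a log2 signal for each transcript cluster on each array, which the authors computed by RMA (robust multi-array averaging) in the Transcriptome Analysis Console, with versions and RMA variant not given in the sources used here. Values ran from 1.73 to 19.93, so fold changes are on that scale. Raw scans and scan dates were not used here. RNA came from F4/80+ liver cells, and precision is limited by 3 arrays per group. Groups and replicate numbers were taken from the sample titles. The table had 28846 entries, and without 6640 control probesets 22206 clusters were tested, of which 19572 had 1 symbol and 2634 none. Where clusters shared a symbol (55 symbols), that with the highest mean was used. Probes named for Ighm, Igkc or Igha were not analysed here.

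Models with 1 mean per group were fitted to all 24 arrays with limma 3.58.1 in R 4.3.3 (16 residual and 4.23 prior degrees of freedom). A difference was called where its p, adjusted by Benjamini-Hochberg over all clusters of the comparison, was under 0.05. The smallest exact p of 3 against 3 arrays is 0.1, so calls rest on the pooled spread. The fit was tested on simulated data. The 6 genes, the lists and the tests were chosen with earlier results of these data known. From each list up to 4 called genes with the smallest p per comparison could be named, and for each of the 6 genes above background the 5 named genes with the highest Pearson's r, which gave Jchain alone. Pou2af1, Tnfrsf17, Derl3 and the Cd3 genes, named for lying below background, and Prdm1 at 3 days were chosen after their values were seen. Deviations from group means of arrays with the same replicate number correlated at -0.36 to 0.28 (median 0.02) in 84 pairs, so the numbers were not taken to pair arrays. The plots were made in Python 3.11.15 with matplotlib 3.10.9.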

Additional observations from a re-analysis of the deposited data

Results flagged for a closer look

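In 7 cases the response to resection differed between animals without and with a spleen by the test of the interaction itself (limma, Benjamini-Hochberg adjusted p). For Jchain the interaction was 4.19 ± 0.91 at 3 days (adjusted p = 0.0401) and 6.31 ± 0.91 at 7 days (0.00677). Cd22 had one of 2.71 ± 0.57 (0.0338) and Cd37 one of 3.97 ± 0.79 (0.0253), both at 24 h. Pigr (5.61 ± 0.97, 0.00853) and Cxcl12 (1.81 ± 0.38, 0.0315) had theirs at 3 days, and Fcgr2b (3.98 ± 0.64, 0.0127) at 7 days. All 7 are positive, as were most called interactions over all clusters: 105 of 152 at 24 h, 104 of 114 at 3 days and 20 of 27 at 7 days. Each of the 7 uses the intact arrays, which lacked Y-linked signal. The Y-linked block cannot separate this lack from the group, as described above. With the Y-linked block the Jchain interaction at 7 days was called (5.88, 0.0458) and the other 6 were not (adjusted p 0.114 to 0.459), and with the hepatocyte covariate none of the 7 was (0.159 to 1). Over all clusters the block left 1 call in the 24 h interaction, and the hepatocyte covariate left 0 at 3 and at 7 days. Such losses are therefore not particular to these genes. With the endothelial covariate that of Pigr was called (4.76, 0.018) and the other 6 were not, where Fcgr2b is 1 of the genes this covariate averages. Leaving out 1 of 12 arrays ended the call of Jchain at 3 days in 10 fits, Cd22 in 9, Cxcl12 in 7 and Cd37 in 3, and of Pigr, Fcgr2b and Jchain at 7 days in 0. Groups of 3 arrays are too small for a test of single outlying arrays.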

How the results depend on the processing

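The counts of called genes among the 6 moved as follows. With a fit on clusters above background on at least 3 arrays (3 of the 6 genes stayed in), with a trend and robust prior, with the replicate block and with a fit on the compared groups alone, 1 gene, Jchain, was called in LR+SE 7 days against SE and in LR+SE against LR at 24 h, where 0 had been; arrays set to 1 median did so for the latter. The replicate block changed no other call on the 6 genes. The trend and robust prior called 2 genes in the F test. The fit on compared groups alone left 0 in SE, LR 24 h and LR 7 days against intact, in LR+SE against LR at 7 days and in the 3 day interaction. Quantile normalization left 0 in the 3 day interaction. The Y-linked block left 0 in SE and LR at all 3 times against intact and in the 3 day interaction, and 1 in LR+SE 7 days against SE. The hepatocyte covariate left 0 in SE and LR 7 days against intact, LR+SE against LR at 7 days and the 3 and 7 day interactions, and turned Jchain in LR+SE 3 days against SE to -0.46. It also gave the lowest counts over all clusters, listed below, in SE and LR 7 days against intact, LR+SE 3 days against SE and these interactions. The endothelial covariate, chosen after seeing the data, left 0 in LR 24 h and LR 7 days against intact, LR+SE against LR at 7 days and the 3 and 7 day interactions. In LR+SE against LR at 7 days it turned Fcgr2b, 1 of the genes it averages, to -0.21 and left 0 of all clusters called. Without the 2 arrays outside the intact group that lacked Y-linked signal, also chosen after seeing the data, 2 genes were called in LR 7 days against intact, 1 in LR+SE 7 days against SE and 0 in the 3 day interaction.

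Leaving out 1 array at a time gave 0 to 2 called genes in SE and LR 24 h against intact, in the 3 day interaction and in the mean over resected groups, 1 to 2 in LR 3 days and LR 7 days against intact, the 7 day interaction and the F test, 0 to 1 in LR+SE against LR at 24 h and 7 days and the 24 h interaction, and 0 in LR+SE against SE at all times, LR+SE against LR at 3 days and the mean over splenectomy. Jchain in LR+SE 24 h against SE ranged from -0.40 to 0.055. Of 75 called differences of 30 genes from the B lineage lists, 37 were lost with the Y-linked block, 35 with the hepatocyte covariate, 42 with the endothelial covariate, 4 with the replicate block and 44 on leaving out at least 1 array. With the 99th percentile of odorant receptors as background (4.62), Cd79a stayed above it on 1 array, Jchain on 24 and the other 4 genes on 0.

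Calls over all clusters, with their range over the settings other than leaving out 1 array, were SE against intact 123 (1 to 282), LR 24 h against intact 1685 (302 to 2366), LR 3 days against intact 524 (275 to 1531), LR 7 days against intact 222 (1 to 726), LR+SE 24 h against SE 295 (140 to 338), LR+SE 3 days against SE 1536 (1 to 2172), LR+SE 7 days against SE 337 (22 to 488), LR+SE 24 h against LR 24 h 723 (125 to 1090), LR+SE 3 days against LR 3 days 28 (1 to 127), LR+SE 7 days against LR 7 days 364 (0 to 1051), the 24 h interaction 152 (1 to 350), the 3 day interaction 114 (0 to 196), the 7 day interaction 27 (0 to 452), the mean over splenectomy 513 (203 to 1068), the mean over resected groups 1850 (1102 to 2127) and the F test 3430 (2357 to 4867). The 5 genes other than Jchain lay near or below background, which limits what their differences can show.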
